A study of Mus musculus with 76 samples.

Results

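A set of 8 genes that mark the projection neurons of the striatum was followed in the dorsal forebrain of mouse embryos whose parents had been exposed to α-cypermethrin before mating. The members are Drd1, Drd2, Penk, Tac1, Ppp1r1b, Isl1, Ebf1 and Rarb, taken by symbol as a list from the 14823 genes of the deposited count table. This list, and the other gene lists used below, were chosen with earlier results of these data known. All 8 were found and all passed the filter on low counts, which left 14339 genes for testing. α-Cypermethrin is a pyrethroid insecticide, a class of compounds that act on voltage-gated sodium channels.

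RNA sequencing was performed on 76 libraries of embryonic day 16 (E16) dorsal forebrain from C57BL/6J mice, with no genotype other than the strain labelled. The mother, the father or both received the compound for 28 days and were then paired, and in the control group (Ctrl, 12 libraries) both parents received vehicle. Treatment was given on 7 days at first, and then in 3 rounds, each a break of 2 days and 5 days of treatment. The dose is labelled 0.3 or 10 with no unit, so the exposed groups are Paternal_0.3Cyp (12 libraries), Maternal_0.3Cyp (12), Both_0.3Cyp (12), Paternal_10Cyp (10), Maternal_10Cyp (8) and Both_10Cyp (10). In the paternal groups the mother received vehicle, and in the maternal groups the father did. Every group held libraries of both sexes and of both labelled batches. The labels name no litter, so p-values measure the spread between libraries, some of which may come from the same dam.

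Striatal projection neurons arise from the lateral ganglionic eminence of the ventral forebrain and fall into a direct and an indirect pathway. Direct-pathway neurons carry the D1 dopamine receptor, which raises cAMP, and release substance P, encoded by Tac1. Indirect-pathway neurons carry the D2 receptor, which lowers cAMP, and release enkephalin, encoded by Penk. Ppp1r1b encodes DARPP-32, a phosphatase inhibitor downstream of both receptors. Isl1 and Ebf1 are transcription factors of the direct pathway, and Rarb encodes a retinoic acid receptor that is abundant in the developing striatum. None of the 8 is expressed in the striatum alone: Penk, Tac1 and Ppp1r1b are also made by other forebrain neurons. How much ventral tissue the dissection included is not given in the sources used here. In these bulk samples, fewer cells of a type and less RNA per cell cannot be told apart.

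Total counts per library ran from 17735597 to 41419156 with a median of 19150870. The smallest count of any of the 8 genes in any library was 86, for Penk, so none was near the limit of detection. Markers of cortical projection neurons, the main neuron class of the dorsal forebrain, were present in every group (12 of 12 tested), and their summed level ran from 1520 to 2720 CPM, which are counts scaled to library size, in Ctrl. The 8 striatal genes summed to 207 to 278 CPM in the same libraries. A set of 4 libraries stood apart in embryonic globin RNA, a sign of the earlier wave of red blood cells: Paternal_0.3Cyp replicates 3 and 4 and Both_10Cyp replicates 7 and 8 held 21.4, 82.5, 11.9 and 11.1 CPM, where the others reached at most 2.84. Another 4 stood apart in diencephalon markers, namely Ctrl replicate 3, Paternal_0.3Cyp replicates 6 and 9 and Paternal_10Cyp replicate 1. Counts of the 8 genes, and of the gene lists that moved with these libraries, are given with and without them.

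Pieces of promoter sequence are shown because they belong to the dopamine receptor gene with the most regular difference from Ctrl and to a gene with a known retinoic acid response element. Both come from RefSeq on GRCm38.p6, which had an entry for 6 of the 8 genes (8 windows of 250 bases before a start). The first is the window before the RefSeq start of Drd2, chr9:49340153-49340402 on the plus strand, of which 68.8% is G or C, with the GC boxes in capitals. The second is the direct repeat of Rarb at chr14:16575513-16575528 on the minus strand, 52 to 37 bases before the start of a RefSeq transcript that begins inside the gene, in a window that GENCODE annotates as exon. Its copies of GTTCA are in capitals, and the gap given below is counted between these copies, not between full half-sites.
Drd2: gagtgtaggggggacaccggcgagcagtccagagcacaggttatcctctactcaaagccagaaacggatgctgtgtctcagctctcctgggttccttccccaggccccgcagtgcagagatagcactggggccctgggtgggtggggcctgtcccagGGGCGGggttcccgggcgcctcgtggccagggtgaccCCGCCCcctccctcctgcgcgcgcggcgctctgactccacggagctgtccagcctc
Rarb: GTTCAccgaaaGTTCA
The Rarb match is a direct repeat of GTTCA with a gap of 6 bases, searched on both strands, which 22 of 32851 promoter windows (0.067%) held. No other window of the 8 genes held it. The GC box (GGGCGG on either strand) was in 32.7% of all windows. The TATA box (TATAAA) and the full cAMP response element (TGACGTCA) were in 12.4% and 1.55% of all windows and in none of the windows of these genes, which says only that these letters are not there.

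Drd2 and Drd1 RNA were both lower after exposure, Drd2 in all 6 exposed groups and Drd1 in 4 of them. Drd2 (chromosome 9, 49340627 to 49408177, plus strand, GRCm38) encodes the inhibitory dopamine receptor. In the 12 Ctrl libraries its normalised level had a lowest, median and highest value of 9.87, 15.0 and 19.8 CPM. At dose 0.3 the same 3 values were 4.65, 10.4 and 15.5 in Paternal_0.3Cyp, 6.97, 9.90 and 14.1 in Maternal_0.3Cyp, and 8.28, 10.4 and 13 in Both_0.3Cyp. At dose 10 they were 7.80, 11 and 13.8 in Paternal_10Cyp, 7.97, 10.2 and 11.8 in Maternal_10Cyp, and 6.04, 11.2 and 14.7 in Both_10Cyp. Every exposed group overlapped Ctrl in range, but 63 of the 64 exposed libraries lay below the Ctrl median and none exceeded the highest Ctrl library. The log2 fold changes against Ctrl (± SE) were -0.53 ± 0.13, -0.52 ± 0.13 and -0.52 ± 0.13 at dose 0.3 for fathers, mothers and both, with adjusted p of 0.00393, 0.00567 and 0.00721 in edgeR's quasi-likelihood test. At dose 10 they were -0.39 ± 0.14, -0.54 ± 0.15 and -0.44 ± 0.14, with adjusted p of 0.0339, 0.00303 and 0.0482. A change of -0.53 leaves 0.692 of the Ctrl level.

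Drd1 (chromosome 13, 54051183 to 54055705, minus strand) encodes the stimulatory dopamine receptor and had the lowest level of the 8 genes per kilobase of exon. Its lowest, median and highest values in Ctrl were 8.94, 11 and 15.2 CPM. At dose 0.3 they were 6.22, 8.19 and 11.7 (fathers), 6.45, 9.27 and 10.7 (mothers) and 5.67, 8.18 and 10.5 (both). At dose 10 they were 5.43, 8.89 and 13.6, then 6.76, 8.67 and 10.6, then 6.32, 9.54 and 11.6 in the same order. The ranges overlapped in every comparison, yet 36 of 64 exposed libraries lay below the lowest Ctrl library, more than for any other of the 8 genes. Drd1 fell in Paternal_0.3Cyp (-0.42 ± 0.11, adjusted p = 0.00648), Maternal_0.3Cyp (-0.33 ± 0.11, 0.0308), Both_0.3Cyp (-0.43 ± 0.11, 0.00907) and Maternal_10Cyp (-0.35 ± 0.13, 0.0233). It was not called in Paternal_10Cyp (-0.31 ± 0.12, 0.0527) or Both_10Cyp (-0.26 ± 0.12, 0.145). The ratio of Drd2 to Drd1 within a library had medians between 1.04 and 1.35 over the 7 groups, with ranges that overlapped throughout.

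**Figure D1:**
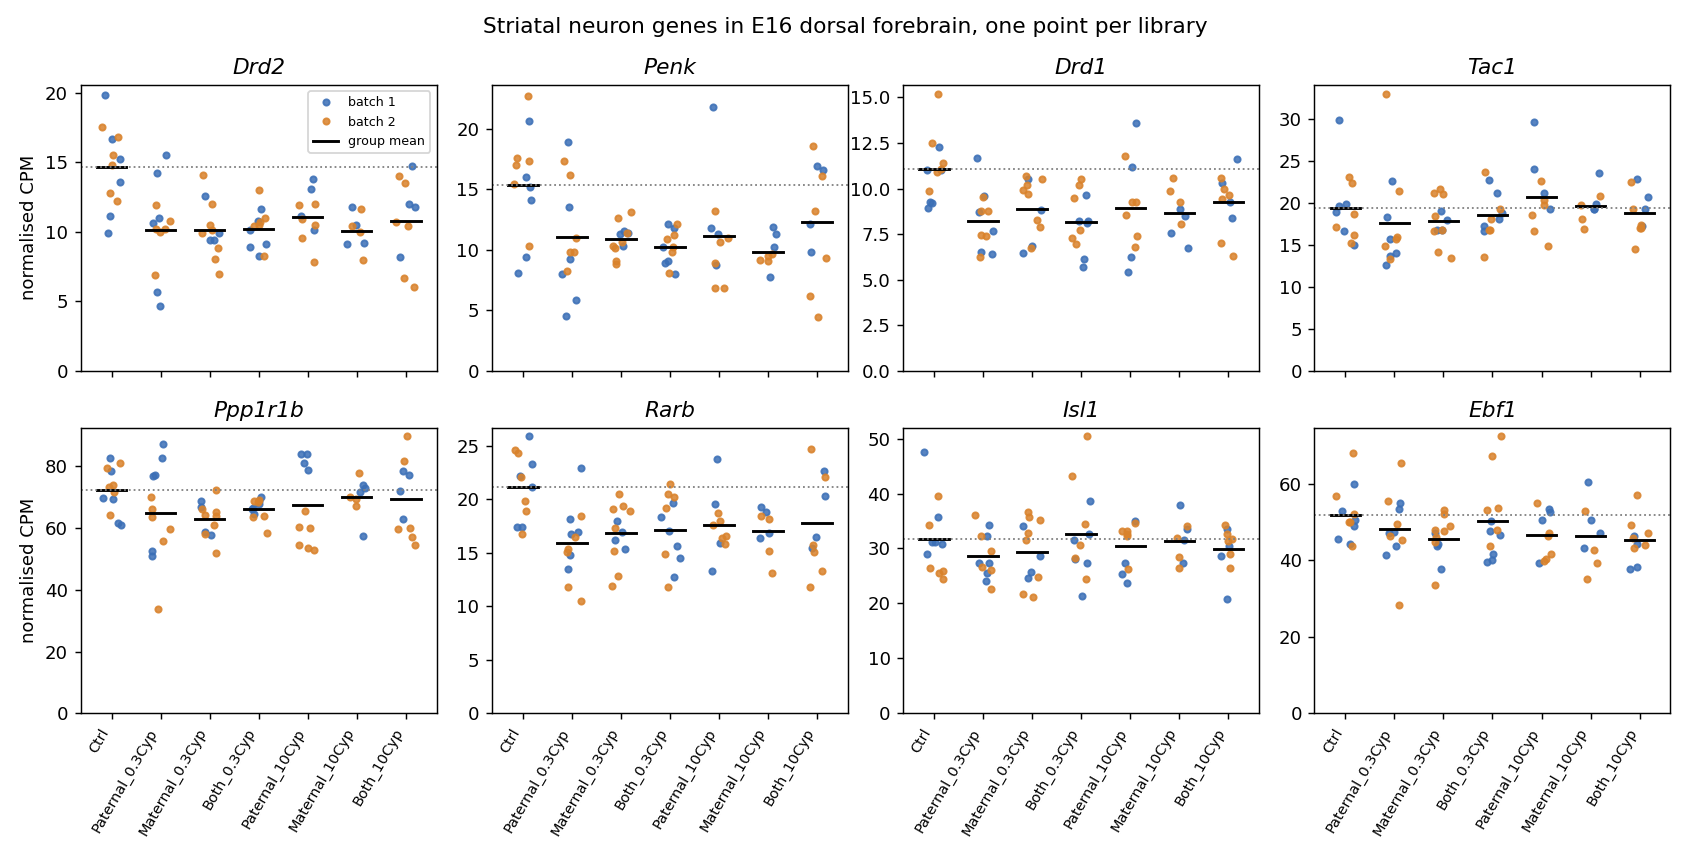
Normalised CPM (vertical axes, from 0) of the 8 genes in each of the 76 libraries by group (horizontal axes), coloured by labelled batch, with black bars for group means and a dotted line at the Ctrl mean. For Drd2, 63 of the 64 exposed libraries lie below the Ctrl median, whereas for Isl1 it is 32 of 64.

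The 2 neuropeptide genes did not move alike: Penk fell in 4 of the 6 exposed groups and Tac1 was called in none. Penk (chromosome 4, 4133531 to 4138819, minus strand), the precursor of the enkephalins, varied most between control embryos, with a coefficient of variation of 28.5%. Its lowest, median and highest values in Ctrl were 8.05, 15.7 and 22.7 CPM. In Maternal_0.3Cyp they were 8.83, 10.9 and 13.1, in Both_0.3Cyp 8, 10.2 and 12.1, and in Maternal_10Cyp 7.76, 9.53 and 11.9. In these 3 groups every library lay below the Ctrl median, and the spread was narrower than in Ctrl. Paternal_0.3Cyp ran from 4.54 through 9.83 to 18.9, Paternal_10Cyp from 6.79 through 10.8 to 21.8, and Both_10Cyp from 4.46 through 12.6 to 18.6, so that 8 of the 32 libraries of these groups lay above the Ctrl median. The changes were -0.47 ± 0.17 in Paternal_0.3Cyp (adjusted p = 0.0342), -0.48 ± 0.17 in Maternal_0.3Cyp (0.0361), -0.59 ± 0.17 in Both_0.3Cyp (0.0143) and -0.64 ± 0.20 in Maternal_10Cyp (0.00813). Paternal_10Cyp (-0.44 ± 0.18, 0.0722) and Both_10Cyp (-0.32 ± 0.18, 0.234) did not pass.

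Tac1 (chromosome 6, 7554879 to 7565834, plus strand), the precursor of substance P, ranged from 12.6 to 33.0 CPM over all libraries, and 35 of the 64 exposed libraries lay below the Ctrl median. Its 6 changes lay between -0.14 ± 0.11 and 0.10 ± 0.12, with adjusted p of 0.351 to 0.903. The ratio of Penk to Tac1 within a library had a median of 0.736 in Ctrl and of 0.506 to 0.661 in the exposed groups, and its range in Ctrl (0.536 to 1.21) overlapped every one of them. Ppp1r1b (chromosome 11, 98348404 to 98357796, plus strand) was the most abundant of the 8 per kilobase. Its 6 changes were between -0.18 ± 0.08 and -0.04 ± 0.09, none called, although 49 of 64 exposed libraries lay below the Ctrl median.

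Among the transcription factors, Rarb behaved like the receptors and Isl1 and Ebf1 did not pass in any group. Rarb (chromosome 14, 16430839 to 16819156, minus strand) had lowest, median and highest values of 16.7, 21.6 and 25.9 CPM in Ctrl. At dose 0.3 they were 10.5, 15.9 and 22.9 (fathers), 11.9, 17.1 and 20.5 (mothers) and 11.8, 17.6 and 21.4 (both). At dose 10 they were 13.3, 17.1 and 23.7, then 13.1, 17.5 and 19.3, then 11.8, 16.1 and 24.7. Each range overlapped that of Ctrl, while 59 of 64 exposed libraries were below the Ctrl median and none was above the highest Ctrl library. Rarb fell in Paternal_0.3Cyp (-0.41 ± 0.11, adjusted p = 0.00501), Maternal_0.3Cyp (-0.32 ± 0.11, 0.0227), Both_0.3Cyp (-0.30 ± 0.11, 0.0342) and Maternal_10Cyp (-0.31 ± 0.12, 0.0298). Paternal_10Cyp (-0.26 ± 0.11, 0.0788) and Both_10Cyp (-0.25 ± 0.11, 0.133) did not pass. Rarb overlaps Top2b on the opposite strand, and no source used here states that strand was used in counting, so reads of the shared stretch are uncertain.

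Isl1 (chromosome 13, 116298281 to 116309689, minus strand), needed for the direct-pathway fate, ranged from 20.8 to 50.5 CPM, and its exposed libraries split evenly around the Ctrl median (32 of 64 below). Its changes ran from -0.16 ± 0.10 to 0.03 ± 0.10, with adjusted p of 0.237 to 0.863. Ebf1 (chromosome 11, 44617317 to 45008091, plus strand), which acts in the same lineage, ranged from 28.3 to 72.4 CPM with 46 of 64 exposed libraries below the Ctrl median. Its changes ran from -0.21 ± 0.09 to -0.05 ± 0.09, with adjusted p of 0.0723 to 0.715.

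**Figure D2:**
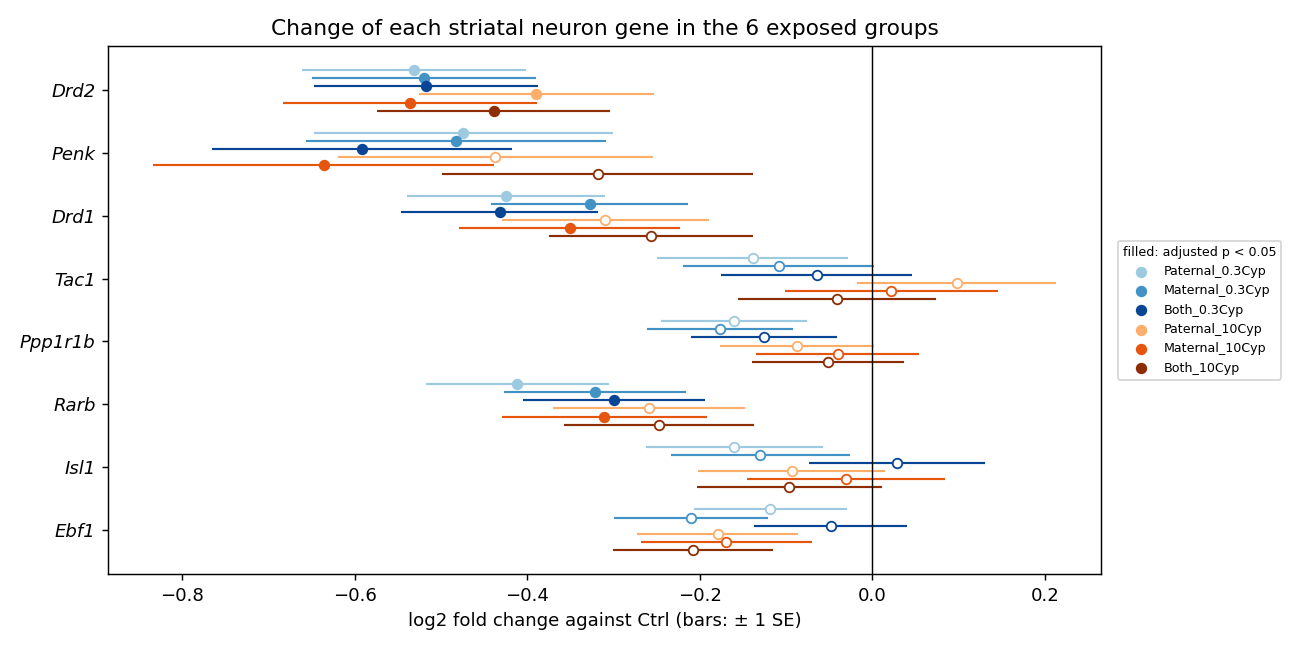
Log2 fold change against Ctrl (horizontal axis, bars ± 1 SE) of each gene (vertical axis) in the 6 exposed groups, which all share the 12 Ctrl libraries; filled points passed an adjusted p of 0.05. Drd2 is filled in all 6 groups, and Tac1, Ppp1r1b, Isl1 and Ebf1 in none.

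Per kilobase of exon, the order of the 8 genes in Ctrl began with Ppp1r1b at 24.6 ± 2.52 CPM per kb (SD, n = 12), well apart from the rest. Penk followed at 9.37 ± 2.67 and Isl1 at 8.03 ± 1.70, which overlapped. Drd2 (5.75 ± 1.13), Tac1 (5.70 ± 1.24) and Ebf1 (5.32 ± 0.713) could not be ordered beyond their spread, and Rarb (4.02 ± 0.589) and Drd1 (3.05 ± 0.482) came last, with ranges that also overlapped. Annotated exon length stands in here for the length of the transcripts expressed.

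The counts that follow are a description, because the 8 genes were chosen with earlier results of these data known. Counted by group, 4 of the 8 genes were lower in Paternal_0.3Cyp, where 12.2% of the 14339 tested genes were lower. It was 4 of 8 in Maternal_0.3Cyp against 12.8% of all genes, and 4 of 8 in Both_0.3Cyp against 11.8%. At dose 10 it was 1 of 8 in Paternal_10Cyp (Drd2) against 10.8%, 4 of 8 in Maternal_10Cyp against 20.4%, and 1 of 8 in Both_10Cyp (Drd2) against 1.58%. In either direction 27.6, 23.7, 22.3, 21.5, 40.8 and 3.91% of all genes were called in these 6 comparisons, so the background was widest in Maternal_10Cyp and narrowest in Both_10Cyp. No member was called higher in any of these comparisons, where between 2.34% and 20.4% of all genes were. The median change of the 8 genes lay between -0.29 and -0.21, while the median of all genes lay between -0.01 and 0.01. In a single test over the 6 exposed groups, Drd2 (adjusted p = 0.00837) and Drd1 (0.0326) were called and Rarb (0.0503) and Penk (0.0574) were not, where 21.7% of all genes were called.

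Dose, parent and sex gave no call among the 8 genes in edgeR. Between dose 10 and dose 0.3, 0 of 8 were called for fathers (0.0628% of all genes), mothers (0%) or both parents (0.00697%), and the number with an unadjusted p below 0.05 was 1 for fathers (Tac1, 0.24 ± 0.12) and 0 for the others. DESeq2 also called 0 in each, while limma called 1 for fathers and 0 for the others. Of all genes, limma called 1.44% for fathers, 3.04% for mothers and 0.0139% for both. For Drd2 the difference between doses was 0.14 ± 0.14 for fathers (95% interval -0.13 to 0.41), -0.02 ± 0.15 for mothers (-0.30 to 0.27) and 0.08 ± 0.14 for both (-0.19 to 0.34). None of these intervals reaches 0.53 in size, the Drd2 change in Paternal_0.3Cyp. Between mothers and fathers at the same dose, 0 of 8 were called at dose 0.3 (0.00697% of all genes) and at dose 10 (0%), with 0 at an unadjusted p below 0.05 and 0 in DESeq2 and limma. Between male and female embryos, 0 of 8 were called (0.0907% of all genes, 0.0488% lower and 0.0418% higher in males), again with 0 unadjusted and 0 in DESeq2 and limma, and the differences lay between -0.09 and 0.13.

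The design also allows a test of whether the effects of the 2 parents add up, by the change in the both-parent group minus the sum of the changes for each parent on the log2 scale. At dose 10, Penk deviated by 0.75 ± 0.27 (adjusted p = 0.0341): the sum of the 2 single-parent changes was lower than the change of -0.32 in Both_10Cyp. It was the only one of 8 called higher in this term, against 14% of all genes (27.2% were called in either direction). Drd2 (0.49 ± 0.20, 0.0651) and Drd1 (0.40 ± 0.18, 0.0801) did not pass. At dose 0.3, 0 of 8 and 0% of all genes were called by edgeR. There 4 of the 8 had an unadjusted p below 0.05 (5 in DESeq2, which called 0), all 8 estimates were above 0, and limma called 1, Drd2 (0.57; 0.53 ± 0.18 in edgeR with adjusted p = 0.0905). Of all genes, limma called 5.39% and DESeq2 3.19% for this term.

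Some of these values differed between the labelled batches. In batch 2, 4 of 8 were lower in Paternal_0.3Cyp (5.03% of all genes), 2 in Maternal_0.3Cyp (9.55%), 0 in Both_0.3Cyp (4.39%), 3 in Paternal_10Cyp (8.66%), 3 in Maternal_10Cyp (15.2%) and 1 in Both_10Cyp (7.52%). In batch 1, 0 of 8 were called in any of the 6, where at most 19 genes of all those tested were called in a comparison. Between 0 and 3 of the 8 had an unadjusted p below 0.05 in batch 1. These values come from one fit over all 76 libraries with an exposure term for each batch. Fits to the libraries of batch 2 alone called 3, 2, 2, 4, 2 and 2 of 8 in the same order, where 9.12, 16.1, 9.19, 14.5, 27.5 and 14.9% of all genes were called in either direction. Fits to batch 1 alone called 0 of 8, where 1.31% of all genes were called in Paternal_10Cyp, 3.25% in Maternal_10Cyp and at most 0.028% in the others. The values that follow are from the one fit over all 76 libraries, where the 6 values of a batch share its 6 Ctrl libraries. Drd2 was below 0 in all 12 of them, from -0.55 ± 0.19 to -0.24 ± 0.21 in batch 1 and from -0.57 ± 0.19 to -0.48 ± 0.19 in batch 2. Rarb was also below 0 in all 12. Penk was near 0 in batch 1 for Paternal_10Cyp and Both_10Cyp (-0.01 ± 0.27 in each) but at -0.78 ± 0.24 and -0.58 ± 0.24 in batch 2. Ppp1r1b in Paternal_10Cyp ran from 78.7 to 83.9 CPM in its 4 batch 1 libraries and from 52.7 to 65.6 in its 6 batch 2 libraries, with no overlap, and its change was 0.23 ± 0.12 in batch 1 and -0.34 ± 0.11 in batch 2. The test of whether exposure effects differed between batches called 0 of 8 in edgeR and 0% of all genes, with 2 at an unadjusted p below 0.05 (Ppp1r1b 0.00998 and Ebf1 0.04885). DESeq2 called 0 and limma 1, where they called 0.0442% and 1.05% of all genes.

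**Figure D3:**
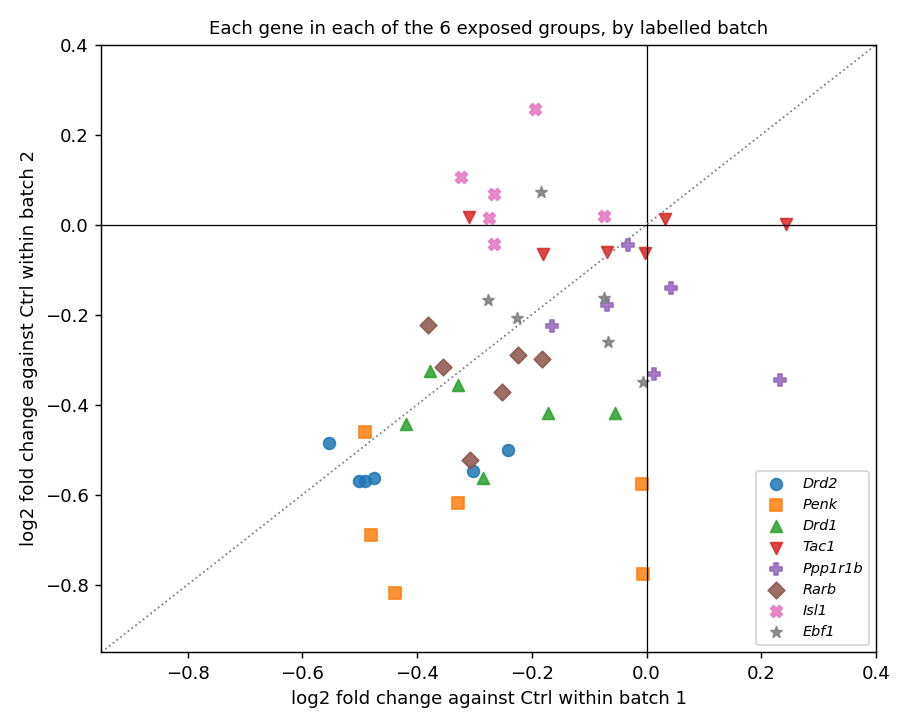
Log2 fold change against Ctrl within batch 1 (horizontal axis) and within batch 2 (vertical axis), one point for each gene in each of the 6 exposed groups; the dotted line marks equal values. Drd2 and Rarb lie below 0 in both batches in all 6 groups, while 2 Penk points lie at -0.01 in batch 1 and at -0.78 and -0.58 in batch 2.

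The libraries high in embryonic globins held the lowest Drd2 and Penk values. Drd2 was 5.67 and 4.65 CPM in Paternal_0.3Cyp replicates 3 and 4 and 6.04 and 6.66 in Both_10Cyp replicates 7 and 8. Penk was 5.83 and 4.54, and 4.46 and 6.16, in the same libraries. Isl1 (34.2, 27.4, 32.7 and 31.7) was within the Ctrl range there, and Ebf1 (55.0, 47.4, 43.1 and 45.7) was too except in Both_10Cyp replicate 7, where it lay just under the lowest Ctrl value of 43.8. Low values in these libraries were not limited to Drd2 and Penk. Tac1 was lowest of all 76 libraries in Paternal_0.3Cyp replicate 3 (12.6). In Both_10Cyp the lowest Tac1 (14.5) and Rarb (11.8) were in replicate 7. Its lowest Drd1 (6.32) and Ppp1r1b (54.4) were in replicate 8. Without the 4 libraries high in embryonic globins Drd2 was at -0.39 in Paternal_0.3Cyp, still called, and at -0.31 in Both_10Cyp, no longer called. Penk was then at -0.33 in Paternal_0.3Cyp, no longer called. In Paternal_10Cyp, whose own libraries were unchanged, the count went from 1 to 3 of 8, and for non-additivity at dose 10 from 1 to 4. The shares of all genes called rose there too, from 21.5 to 27.0% and from 27.2 to 39.5%. With the log2 ratio of embryonic to adult globin counts as a covariate, 0 of 8 were called in any of the 6 comparisons with Ctrl (1 to 3 at an unadjusted p below 0.05), and Drd2 lay between -0.33 and -0.21. Over all genes that fit called 0.307, 1.19, 0.0697, 16.0, 28.1 and 0.921% in the same order of groups, so in Paternal_10Cyp and Maternal_10Cyp many other genes passed where none of the 8 did. The median summed embryonic globin level was 0.185 CPM in Ctrl and 0.736 to 1.38 CPM in the exposed groups. The part of these globin differences in the striatal values was not tested further.

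Without the 4 libraries high in diencephalon markers, 3, 4, 3, 0, 4 and 0 of 8 were called against Ctrl in the order of the groups above, and 0 for non-additivity at dose 10. Of all genes, 26.0, 17.2, 16.1, 10.4, 38.8 and 1.14% were called in that fit, and 21.8% for non-additivity. With all libraries these shares were 27.6, 23.7, 22.3, 21.5, 40.8 and 3.91%, and 27.2%. Ctrl replicate 3, one of these, held the highest Drd2 and Rarb values of all 76 libraries (19.8 and 25.9 CPM). Leaving it out alone, Drd2 in Paternal_10Cyp went from -0.39 to -0.33 and in Both_10Cyp from -0.44 to -0.39, and neither was then called. The single Drd2 call in Paternal_10Cyp was lost in 10 of 22 fits without 1 library and the one in Both_10Cyp in 14 of 22. The Penk call was lost in 10 of 24 such fits in Paternal_0.3Cyp (adjusted p up to 0.0948) and in 7 of 24 in Maternal_0.3Cyp (up to 0.104). Leaving out Ctrl replicate 3, 7, 8, 9 or 12 ended both, and the others were Paternal_0.3Cyp replicates 3 to 7 and Maternal_0.3Cyp replicates 2 and 5. The Rarb call was lost in 8 of 24 in Both_0.3Cyp (up to 0.0707) and in 6 of 20 in Maternal_10Cyp (up to 0.0806), Ctrl replicates 3, 9 and 10 being among the libraries in both. The others were Ctrl replicate 7, Both_0.3Cyp replicates 1, 2, 3 and 12 and Maternal_10Cyp replicates 1, 5 and 7. The Drd1 call was lost in 5 of 24 in Maternal_0.3Cyp (up to 0.0745) and in 2 of 20 in Maternal_10Cyp (up to 0.0564), Ctrl replicate 12 being one in both, beside Maternal_0.3Cyp replicates 1, 2, 5 and 6 and Maternal_10Cyp replicate 2. The other 10 calls of these 4 genes against Ctrl were kept in every fit without 1 library.

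The same direction was seen in other genes of these neurons, on a list also chosen with earlier results of these data known. Of 18 other striatal projection neuron genes, 12 fell in Paternal_0.3Cyp, 12 in Maternal_0.3Cyp, 9 in Both_0.3Cyp, 8 in Paternal_10Cyp, 12 in Maternal_10Cyp and 1 in Both_10Cyp, and none rose in any. Of all tested genes, 12.2, 12.8, 11.8, 10.8, 20.4 and 1.58% fell in the same order of groups. The shares of all genes that rose were 15.4, 10.9, 10.5, 10.7, 20.4 and 2.34%. The median changes of the 18 genes lay between -0.43 and -0.24. Without the 4 libraries high in embryonic globins 4, 13, 12, 9, 13 and 0 of the 18 fell. There 14.8, 27.8, 26.3, 27.0, 43.3 and 0.0699% of all genes were called in either direction. Without those high in diencephalon markers 10, 10, 6, 3, 11 and 1 of the 18 fell, against 26.0, 17.2, 16.1, 10.4, 38.8 and 1.14% called. Chrm4, the M4 muscarinic receptor, was the one called in all 6, with changes from -0.82 in Maternal_10Cyp to -0.54 in Maternal_0.3Cyp. Gprin3, a G protein regulator of neurite growth, fell in 5 groups, by 1.15 on the log2 scale in Maternal_10Cyp. Adcy5, the main striatal adenylyl cyclase, and Pde10a, a striatal phosphodiesterase, fell in the same number of groups, from -0.37 to -0.26 and from -0.46 to -0.30. Others on that list, picked here after their values were seen, lay near 0: Pde1b was between 0.01 and 0.08 and Tshz1 between -0.09 and 0.03, neither called.

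Transcription factors of the striatum and the lateral ganglionic eminence did not share this direction as a group. Of 18, between 1 and 3 fell and at most 1 rose in each group, with medians from -0.06 to 0.09. Of all genes, 1.58% to 20.4% fell and 2.34% to 20.4% rose in a group. Foxp1, a factor of maturing projection neurons, fell in all 6, from -0.50 in Maternal_10Cyp to -0.31 in Both_0.3Cyp and Both_10Cyp. Ikzf1, which acts in enkephalin neurons, fell in Paternal_0.3Cyp (-0.33) and Maternal_0.3Cyp (-0.35), and Six3 in Paternal_10Cyp (-0.29). Dlx1, expressed in ventral progenitors and immature neurons, rose in Both_0.3Cyp (0.21) and Maternal_10Cyp (0.19).

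**Figure D4:**
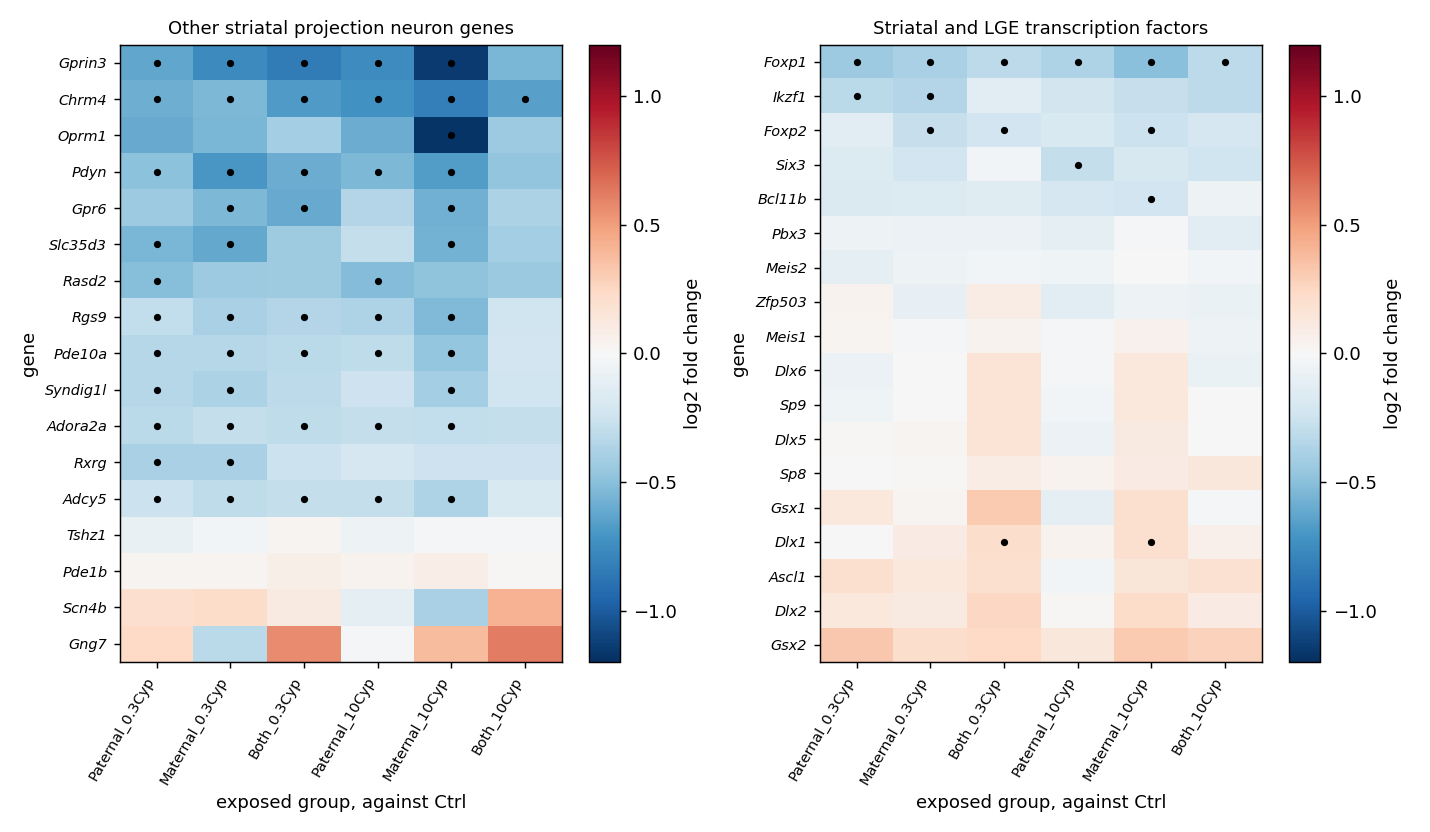
Log2 fold change against Ctrl (colour scale) of 17 of the 18 other striatal projection neuron genes (left) and 18 striatal and lateral ganglionic eminence (LGE) transcription factors (right), one row per gene and one column per exposed group; dots mark an adjusted p below 0.05. On the left Chrm4 is dotted in all 6 columns, and on the right Foxp1 is.

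Of 23 tested dopamine and cAMP signalling genes, 11, 10, 9, 5, 9 and 2 fell in the order of the groups above, and 1, 2, 2, 3, 3 and 0 rose. Of all genes, 12.2, 12.8, 11.8, 10.8, 20.4 and 1.58% fell and 15.4, 10.9, 10.5, 10.7, 20.4 and 2.34% rose. The list includes Drd4, Th and Slc18a2, and it shares Adcy5, Pde10a and Pde1b with the striatal projection neuron list, so the 2 counts are not separate. Gnao1, a G protein subunit, and Ppp3ca, a calcineurin subunit, fell in all 6 groups, from -0.25 to -0.17 and from -0.26 to -0.17. The medians lay between -0.07 and -0.02. Of 12 tested neuropeptide processing and receptor genes, 2, 4, 4, 2, 7 and 1 fell and none rose. Pcsk2, a convertase that cuts proenkephalin, fell in all 6, from -0.69 in Maternal_10Cyp to -0.39 in Paternal_0.3Cyp. The receptor genes Oprd1 (delta opioid), Oprm1 (mu opioid) and Tacr3 (neurokinin) reached -1.06, -1.18 and -0.84 in Maternal_10Cyp, all called there. Their levels were low, with means of 0.573, 1.29 and 1.95 CPM over all libraries. Of 15 tested retinoic acid pathway genes, 1 to 3 fell and 0 to 2 rose in a group, where 1.58% to 20.4% of all genes fell and 2.34% to 20.4% rose. Rara, a receptor gene related to Rarb, fell in 4 groups, to -0.27 in Paternal_10Cyp. Aldh1a1, a retinaldehyde dehydrogenase, fell in Maternal_0.3Cyp, Both_0.3Cyp, Paternal_10Cyp and Maternal_10Cyp, to -2.17 in Paternal_10Cyp, and Rxrb rose in Maternal_10Cyp (0.17). Aldh1a1 was near the floor, with a mean of 0.503 CPM and a range of 0.0503 to 12.6 over the libraries. Whether single libraries carry its change was not tested.

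Markers of other cells moved in the same comparisons, and their part in the striatal values was not tested. Of all genes, 12.2, 12.8, 11.8, 10.8, 20.4 and 1.58% fell in these comparisons, and 15.4, 10.9, 10.5, 10.7, 20.4 and 2.34% rose. Of 11 progenitor and cycling cell markers, 8, 6, 6, 3, 8 and 1 rose and none fell, and their summed level was 972 to 1780 CPM in Ctrl against 1080 to 2770 in Paternal_0.3Cyp and 1420 to 1870 in Maternal_10Cyp. Without the libraries high in embryonic globins 3, 8, 9, 6, 9 and 0 of the 11 rose. There 14.8, 27.8, 26.3, 27.0, 43.3 and 0.0699% of all genes were called in either direction. Without those high in diencephalon markers 8, 4, 3, 0, 7 and 0 of the 11 rose, against 26.0, 17.2, 16.1, 10.4, 38.8 and 1.14% called. Hmga2, a factor of early progenitors, rose by 1.33 in Paternal_0.3Cyp, Pax6 by 0.46, Ccnb1 by 0.56 and Vim by 0.36 in Maternal_10Cyp. Of 17 interneuron markers, 6, 5, 2, 4, 7 and 1 fell and none rose. Among these Gad1 fell in 4 groups, Prox1 in 2 and Lhx6 in Paternal_0.3Cyp alone. Their summed level was 1030 to 1430 CPM in Ctrl and 806 to 1290 over the exposed groups. Of 12 cortical projection neuron markers, 2, 0, 1, 1, 1 and 0 fell and 1, 0, 0, 1, 3 and 0 rose. There Tle4 fell in 4 groups (-0.22 to -0.13), Emx1 rose in 3 (0.37 to 0.52) and Neurod6 in Maternal_10Cyp (0.25).

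Of 14 tested diencephalon markers, 8 rose in Paternal_0.3Cyp, 2 of whose 12 libraries stand apart in these markers, among them Irx1, Irx2 and Irx5 (1.49, 1.93 and 1.86). Of all genes, 15.4% rose in Paternal_0.3Cyp. In each other group 1 or 2 of the 14 fell, Foxb1 in each of them (-2.46 to -2.06), where 1.58% to 20.4% of all genes fell. Without the 4 libraries high in these markers 3 rose in Paternal_0.3Cyp, where Irx1, Irx2 and Irx5 (0.60, 1.37 and 0.65) no longer passed, and Foxb1 passed in 2 groups, Maternal_0.3Cyp (-1.38) and Both_0.3Cyp (-1.50). Their sums were 24.3 to 247 CPM in Ctrl and 29.9 to 524 in Paternal_0.3Cyp, and Irx2, Irx5, Sim1, Otp, Shox2, Pou4f1 and Foxb1 were at 0 in 1 to 14 libraries. Of 15 pericyte, smooth muscle and meninges markers, 0 to 3 fell and none rose, where 1.58% to 20.4% of all genes fell and 2.34% to 20.4% rose. Cspg4 fell in 5 groups, to -1 in Maternal_10Cyp, Pdgfrb in both single-parent groups at dose 10 and Abcc9 in Maternal_10Cyp, while Col1a1 passed in none. Of 8 Cajal-Retzius cell markers, Reln and Ndnf fell in Maternal_10Cyp (-0.70 and -0.61) and Trp73, named after its value was seen, rose in Maternal_0.3Cyp (0.30), with Ebf3 and Lhx1 called in no group. The sums of these last lists in Ctrl were 168 to 590 and 173 to 383 CPM. Embryonic globins rose in Paternal_0.3Cyp (2 of 2) and Both_10Cyp (Hbb-y, 3.37). Without the 4 libraries high in them they passed in neither (Hbb-y 1.12 and 0.25) and rose in Both_0.3Cyp and Maternal_10Cyp (2 of 2 in each). Adult globins rose in Paternal_0.3Cyp (4 of 4), Both_0.3Cyp (1) and Paternal_10Cyp (2).

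Within groups, several of the 8 genes varied together from embryo to embryo. After removing group, batch and sex, 28 pairs were compared over the 76 libraries, 24 had a positive Pearson r with a median of 0.364, and 20 had an adjusted permutation p below 0.05. Drd2 and Penk, both of the indirect pathway, gave r = 0.736 and Spearman's rho = 0.629 (permutation p = 1e-05 for each, the smallest that 100000 permutations can give; adjusted 5.6e-05 and 4e-05). Without the 2 libraries farthest from the median, r was 0.664, and it was 0.826 in batch 1 and 0.631 in batch 2. Drd2 and Rarb gave r = 0.706 and rho = 0.733 (permutation p = 1e-05 for each, adjusted 5.6e-05 and 4e-05), 0.701 without 2 libraries, and 0.725 and 0.723 in the batches. Penk and Tac1 gave r = 0.645 and rho = 0.615 (permutation p = 1e-05 for each, adjusted 5.6e-05 and 4e-05), 0.637 without 2 libraries, and 0.799 and 0.529 in the batches. All values in a library share its dissection, depth and RNA quality. The 4 libraries high in embryonic globins were kept in these correlations. Pairs of other genes were not tested, so the 20 of 28 cannot be set against a share over all genes.

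The direct-pathway factors Isl1 and Ebf1 also varied together, and Isl1 followed Rarb about as closely. Isl1 and Ebf1 gave r = 0.476 and rho = 0.480 (permutation p = 3e-05 and 1e-05, adjusted 0.00012 and 4e-05), 0.450 without 2 libraries, and 0.400 and 0.519 in the batches. Isl1 and Rarb gave r = 0.5 and rho = 0.497 (permutation p = 1e-05 for each, adjusted 5.6e-05 and 4e-05), 0.469 without 2 libraries, and 0.542 and 0.476 in the batches. Isl1 showed no relation to Penk (r = -0.00117, rho = 0.00640, permutation p = 0.992 and 0.956, r without 2 libraries 0.0201). For Isl1 and Drd1, r was -0.00317 and rho -0.0166 (permutation p = 0.978 and 0.887, r without 2 libraries -0.0151). Pathway alone did not order the pairs. Drd2 and Tac1, of different pathways, gave r = 0.57 and rho = 0.627. Among direct-pathway pairs, Isl1 and Tac1 gave r = 0.425 and rho = 0.386. Drd1 and Tac1, also of the direct pathway, gave r = 0.0844 and rho = 0.157.

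**Figure D5:**
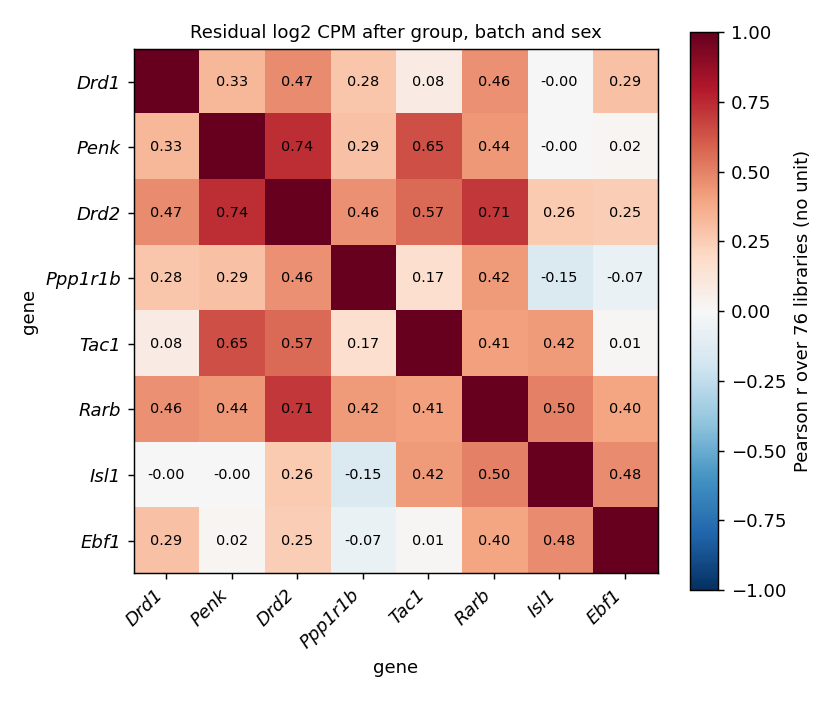
Pearson r (colour and number) between each pair of the 8 genes (both axes) over the 76 libraries, computed on log2 CPM after removing group, batch and sex. Drd2 with Penk (0.74) and Drd2 with Rarb (0.71) are the highest, and Isl1 with Penk and with Drd1 are at 0.00 in size.

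Some of the genes whose residual log2 CPM followed each member best over the 76 libraries are given by Pearson r, as a description. Drd2 was followed by Ngef (0.830), Rxrg (0.830) and Gucy1b1 (0.828), and Rarb by Rxrg (0.713) and Syt6 (0.693). Rxrg encodes a retinoid receptor. Isl1 was followed by Dlx5 (0.774), Six3 (0.740) and Gad2 (0.738), all genes of ventral forebrain neurons. Ppp1r1b was followed by Cadm4 (0.759), Mpped1 (0.743) and Adora2a (0.741), the last of which encodes the adenosine receptor of indirect-pathway neurons. Penk was followed by Atp1b1 (0.914), Cspg5 (0.913) and Gabra5 (0.907), and Tac1 by Rgs2 (0.775), Snrpn (0.768) and Zwint (0.761), which are broadly neuronal genes. Drd1 was followed by Camta2 (0.762) and Rap2a (0.742), and Ebf1 by Mgat5 (0.720), Sh3pxd2b (0.696) and Prep (0.685). The mean of the 8 standardised genes was followed by Rxrg (0.854), Tspan9 (0.817), Ngef (0.796), Dclk3 (0.771), Ikzf1, Strip2 and Sertad4.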

How the data were processed

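The deposited values are estimated counts per gene, all whole numbers. The submitters' processing notes name Trim Galore 0.5.0, which trims reads, Salmon 1.10.1, which estimates counts from reads, and the build mm10. RNA was extracted with a column kit and libraries were built by a company, per the labels' protocols. Genes were named with a table of gene IDs (14810 of 14823). The 8 members and all 13 other gene lists were chosen with earlier results of these data known.

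Counts were normalised by TMM, filtered with edgeR's filterByExpr (14339 kept, 484 removed) and tested with edgeR 4.0.16 in R 4.3.3. The robust quasi-likelihood fit held group, batch and sex over all 76 libraries, and p-values were adjusted by Benjamini-Hochberg over all genes tested, with a call at 0.05. SE and 95% intervals come from that fit. Levels are TMM-normalised CPM, and correlations used log2 CPM with a prior count of 1. Depth was 17735597 to 41419156 counts per library, and the smallest count of a member in a library was 86. On simulated counts for Maternal_10Cyp against Ctrl (14339 genes), 75 of 100 genes changed 1.5-fold and 37 of 100 changed 1.2-fold were called, as were 4 of 14139 unchanged genes. No 2 libraries were identical. Replicate numbers did not pair libraries: residuals of same-numbered libraries correlated at 0.0169 on average (186 pairs).

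Named genes were all 8 members, up to 4 genes per list with the lowest p over the 6 exposed groups, and the 3 genes most like each member (8 for their mean). Some genes that this rule names are not reported here. Gene positions and exon lengths are GENCODE M21 (GRCm38). Alternatives were another scaling, filter, tool (DESeq2 1.42.0, limma 3.58.1), covariates (sva 3.50.0), thinned counts, batch subsets, a replicate block and libraries left out. List counts without the libraries high in diencephalon markers or embryonic globins were added after seeing the data.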

Additional observations from a re-analysis of the deposited data

Results flagged for a closer look

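Penk in Paternal_10Cyp replicate 4 stood at 21.8 CPM, far from the other 9 libraries of its group, of which the next was at 13.2. Dixon's rule was applied to each of the 8 genes in the 3 groups of 4 to 10 libraries, 24 sets of values in all, and this 1 exceeded the 95% critical value. Chance gives about 1 in 20, so a single such value among 24 is about what chance gives. Without this library 4 of the 8 genes were called in Paternal_10Cyp rather than 1, where the main fit called 21.5% of all genes. The share of all genes in the fit without this library is not given, so the 4 cannot be set against it. In the same library Tac1 (29.6 CPM) and Rarb (23.7 CPM) were also the highest of their group.

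At dose 10 the Penk change with both parents exposed was 0.7539 above the sum of the single-parent changes (edgeR's quasi-likelihood test, adjusted p = 0.0341). Penk was the 1 of 8 genes called for this term, where 27.2% of all genes were called in either direction, so it does not stand out from them. The changes in this term all share the Ctrl libraries. The Penk call was lost in 10 of 40 fits without 1 library (adjusted p up to 0.0697 in the same test). Of the 10 Both_10Cyp libraries 6 lay below the Ctrl median, against 9 of 10 in Paternal_10Cyp and 8 of 8 in Maternal_10Cyp.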

How the results depend on the processing

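Of 19 values called for single genes, 190 of 266 refits under other settings and 380 of 452 refits without 1 library kept the call, and none reversed direction. The count of the 8 genes called against Ctrl (main 4, 4, 4, 1, 4 and 1 for Paternal_0.3Cyp, Maternal_0.3Cyp, Both_0.3Cyp, Paternal_10Cyp, Maternal_10Cyp and Both_10Cyp), in the joint test (2) and for non-additivity at dose 10 (1) moved as follows. Shares of all genes called in either direction (27.6, 23.7, 22.3, 21.5, 40.8, 3.91, 21.7 and 27.2%) moved too and follow each list in the same order. With the globin ratio as covariate all 8 counts were 0 (0.307, 1.19, 0.0697, 16.0, 28.1, 0.921, 4.03 and 18.0%), as in batch 1 alone (0.028, 0, 0, 1.31, 3.25, 0, 0 and 3.45%). With 2 surrogate variables they were 3, 0, 1, 0, 1, 0, 0 and 0 (15.0, 0.537, 4.09, 17.1, 33.1, 0.76, 8.51 and 23.7%), and in batch 2 alone 3, 2, 2, 4, 2, 2, 0 and 0 (9.12, 16.1, 9.19, 14.5, 27.5, 14.9, 5.94 and 3.84%). limma gave 5, 5, 4, 5, 4, 1, 5 and 4 (19.8, 34.7, 36.9, 30.4, 48.7, 6.64, 39.9 and 42.7%), and 1 each for non-additivity at dose 0.3, for dose in fathers and for batch by exposure (5.39, 1.44 and 1.05%), where edgeR gave 0. DESeq2 gave 4, 4, 4, 2, 4, 1, 4 and 1 (28.7, 24.8, 24.4, 23.5, 41.6, 8.16, 26.6 and 28.9%). Fits to only the groups compared gave 0, 6, 5, 2, 4 and 0 (0, 33.8, 35.1, 28.2, 45.3 and 4.03%), and 2 for non-additivity at dose 10 (31.7%). Without the libraries high in diencephalon markers they were 3, 4, 3, 0, 4, 0, 1 and 0 (26.0, 17.2, 16.1, 10.4, 38.8, 1.14, 16.0 and 21.8%). Without those high in embryonic globins, chosen after seeing the data, they were 3, 4, 4, 3, 4, 0, 4 and 4 (14.8, 27.8, 26.3, 27.0, 43.3, 0.0699, 28.6 and 39.5%). The replicate block gave 4, 4, 4, 2, 3, 1, 2 and 1 (30.9, 25.7, 25.9, 16.6, 32.0, 2.39, 19.3 and 19.0%), although the numbers showed little sign of pairing libraries on average. Without a batch term Both_10Cyp had 0 (0.384%), and with counts thinned to equal depth non-additivity at dose 10 had 0 (26.9%). The cause of these shifts was not tested.

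Leaving out 1 library gave 3 to 4, 2 to 5, 3 to 4, 0 to 4, 3 to 4 and 0 to 1 of 8 against Ctrl, 1 to 4 in the joint test, 0 to 3 for non-additivity at dose 10, 0 to 2 at dose 0.3 and 0 to 1 for dose in fathers. Maternal_0.3Cyp fell to 2 without Ctrl replicate 12, Maternal_0.3Cyp replicate 2 or replicate 5. The shares of all genes called in the fits without 1 library are not given, so these counts cannot be set against them. Values that changed sign without 1 library were all uncalled: Isl1 for non-additivity at dose 10 (-0.0545 to 0.0726), Isl1 (-0.0332 to 0.0944) and Tac1 (-0.105 to 0.0110) in Both_0.3Cyp, Isl1 (-0.0716 to 0.0423), Tac1 (-0.0164 to 0.103) and Ppp1r1b (-0.0745 to 0.00114) in Maternal_10Cyp, and Tac1 in Both_10Cyp (-0.0729 to 0.0324).

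Under other settings the sign changed only in uncalled values. With 2 surrogate variables Tac1 was at 0.00942, 0.106, 0.102 and 0.110 in Paternal_0.3Cyp, Maternal_0.3Cyp, Both_0.3Cyp and Both_10Cyp, and non-additivity at dose 0.3 was -0.00519 for Penk and -0.0130 for Tac1. With the globin ratio Tac1 was at 0.000444, 0.0572 and 0.0195 in Maternal_0.3Cyp, Both_0.3Cyp and Both_10Cyp, and Ppp1r1b at 0.0841 in Maternal_10Cyp and -0.0536 for non-additivity at dose 10. In batch 1 alone Ppp1r1b was at 0.0149, 0.243, 0.0478 and, for non-additivity at dose 10, -0.168 (Paternal_0.3Cyp, Paternal_10Cyp and Both_10Cyp before it), Isl1 at -0.183 in Both_0.3Cyp, Tac1 at 0.00750 in Both_10Cyp and Ebf1 at -0.210 for non-additivity at dose 10. In batch 2 alone Isl1 was at 0.0200, 0.116, 0.0273 and 0.0677 in Maternal_0.3Cyp, Paternal_10Cyp, Maternal_10Cyp and Both_10Cyp and at -0.0754 for non-additivity at dose 10, Tac1 at 0.0259 in Paternal_0.3Cyp and -0.0305 for non-additivity at dose 0.3, and Ebf1 at 0.0704 in Both_0.3Cyp. Without the diencephalon-high libraries Tac1 was at 0.00174 in Both_0.3Cyp and 0.0265 in Both_10Cyp, and Isl1 at 0.0276 in Maternal_10Cyp and -0.0606 for non-additivity at dose 10. limma put the latter Isl1 values at 0.0134 and -0.0218, and the replicate block put Tac1 in Maternal_10Cyp at -0.0486. The batch by exposure test was not refitted without single libraries, and no fit to only the groups compared was made for the joint, sex and batch tests. Depth limits none of the 8 genes, whose lowest count was 86.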
